A study of Mus musculus with 16 samples.

Results

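The genes described here encode the proteins of the cytosolic ribosome. They were chosen by name and annotation from the count table: protein-coding genes whose symbol begins Rpl or Rps with a number or an a, or is Rplp0, Rplp1 or Rplp2, without the S6 kinases (Rps6k) and Rps19bp1. The rule gave 92 of 55416 genes. Of these, 77 encode the core proteins of the ribosome, 46 in the large and 31 in the small subunit, and 15 are paralogs or retrocopies of them, such as Rpl22l1, Rpl39l and Rps27l.

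Counts came from polyA RNA-seq of erythroblasts at 2 stages, S1 and the later S3, sorted by Ter119 and CD71 from the foetal livers of 8 embryos at E13.5. The 4 wild-type (WT) embryos were males 0 and 8 and females 1 and 5, the 2 heterozygous (Het) embryos were males 3 and 4, and the 2 homozygous (KO) embryos were female 2 and male 9. Het and KO embryos carried on 1 or both chromosomes a constitutive deletion of the Nprl3 promoter region in a line backcrossed to CB57BL/6 J, as the methods spell it, so that the promoter deletion is present in every tissue and not only in erythroid cells. The labels name no treatment, and each embryo gave 1 library per stage. A stem cell line stands in 2 fields of the labels, those for source and tissue. By their titles and the study's methods the cells were sorted from foetal liver, and the erythroid markers Tfrc, Alas2, Epor, Gata1, Klf1, Slc4a1 and Kit were all detected.

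Nprl3 is a subunit of GATOR1, which restrains the kinase complex mTORC1 when amino acids are scarce. Most transcripts for ribosomal proteins begin with a C and a stretch of pyrimidines, the terminal oligopyrimidine (TOP) motif, through which mTORC1 and the RNA-binding protein LARP1 control their translation and stability. Erythroblasts make most of their ribosomes early and carry them into the reticulocyte, and loss of 1 copy of a ribosomal protein gene is the usual cause of Diamond-Blackfan anaemia, in which red cell precursors are lost. The comparisons bear on whether the transcripts of these genes moved with maturation and with loss of Nprl3. Translation and phosphorylation were not measured in these libraries.

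The start sites of the genes are shown first, because TOP control rests on them. A promoter window was found for 66 of the 92 genes in RefSeq's table, which uses the build GRCm38.p6, and the stretches printed were placed by exact match in GRCm39 (mm39), the build of the counts. Read in the direction of transcription, 23 of their 78 windows (29.5%) had a C at the annotated start, against 16.3% of 32851 windows of all genes. A C followed by at least 4 bases that were each C or T lay within 5 bases of the start in 33 windows (42.3%), against 18.3% of all windows, 18.6% of those of ribosome biogenesis factors and 22.7% of those of mitochondrial ribosomal proteins. The following 30-base stretches belong to genes whose levels are described later, and capitals mark the C and the pyrimidines after it:
Rps6, chr4:86775586-86775615, minus strand: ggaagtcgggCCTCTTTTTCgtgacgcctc
Rpl18, chr7:45367486-45367515, plus strand: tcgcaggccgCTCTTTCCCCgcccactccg
Rpl13a, chr7:44778148-44778177, minus strand: tgcgacaagaCCTCCTCCTTTCCCaggcgg
Rps10, chr17:27854202-27854231, minus strand: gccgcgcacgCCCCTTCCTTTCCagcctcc
Rps2, chr17:24939031-24939060, plus strand: agatctcgcgCTTCTTggagcactataaat

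No such run lay within 5 bases of the annotated start in other genes that are described later, whose stretches are printed from 10 bases before that start:
Rpl5, chr5:108048384-108048413, plus strand: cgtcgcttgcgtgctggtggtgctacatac
Rpl41, chr10:128385018-128385047, minus strand: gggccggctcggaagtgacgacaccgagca
Rpl7l1, chr17:47093563-47093592, minus strand: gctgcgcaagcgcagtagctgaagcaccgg
Rpsa, chr9:119956822-119956851, plus strand: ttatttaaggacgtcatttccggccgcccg
The annotated start need not be the start used in erythroblasts, and the absence of a run says only that these letters are not in this window. Each class holds a gene that was higher and a gene that was lower at S3 than at S1: Rps2 and Rps10 with a run, Rpl41 and Rpl5 without.

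The libraries held 20666044 to 37609502 counts. Nprl3 had 881 to 1588 counts in the WT, 452 and 605 in the Het and 13 and 32 in the KO libraries of S1. The 2 KO embryos had 1730 and 2069 counts of it at the later stage, against 2953 to 3883 in WT and 2300 and 2631 in Het. The deletion leaves the α-globin enhancers in the introns of Nprl3 in place, and RNA that starts there is counted with the gene. WT embryos 0 and 8, both males, stood apart from WT embryos 1 and 5. At S1 their summed neutrophil markers were 204 and 116 TMM-scaled counts per 1000000 (CPM, scaled so that libraries are equal on the bulk of the genes) against 1153 to 1700 in the other 6 embryos, and their summed hepatoblast markers were 396 and 366 against 35.3 to 199. At S3 hepatoblast markers summed to 1014 and 612 in WT 0 and WT 8 and to 108 to 324 in the others. Globin genes took 1.07% and 1.00% of the counts of WT 0 and WT 8 at S1 and 0.0738% to 0.306% in the others. Summed erythroid markers were at 2156 and 2591 CPM at S1 against 1463 to 1629, and at 32450 and 36870 at S3 against 24370 to 31020. Markers of primitive erythroid cells summed to 53.2 and 84.3 at S1 against 2.09 to 29.9, and at S3 both embryos lay within the range of the others. The part of these differences in the results that follow was not tested. Calls of ribosomal protein genes between S1 and S3 in WT are given with and without these embryos. For KO against WT, and for Het against WT at S3, both calls and medians are given with and without them.

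The ribosomal protein genes took a smaller share of the counts at S3 than at S1 in all 8 embryos. At S1 the share was 4.99%, 5.07%, 5.24% and 3.11% in WT embryos 0, 1, 5 and 8, 4.57% and 4.94% in Het 3 and 4, and 4.93% and 4.41% in KO 2 and 9. At S3 it was 1.90%, 2.62%, 2.26% and 1.85% in WT, 2.25% and 2.55% in Het, and 2.54% and 2.08% in KO. The stages did not overlap, WT 8 was lowest at both, and the genotypes overlapped at both. The ratio of S3 to S1 within an embryo ran from 0.382 in WT 0 to 0.595 in WT 8.

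A share falls when other transcripts rise, and globin genes went from between 0.0738% and 1.07% of the counts at S1 to between 10.0% and 11.8% at S3. Without the globin counts the ratio was 0.423 to 0.668. After TMM scaling the summed level of the ribosomal protein genes ranged between 20550 and 39370 CPM at S1 and between 24980 and 37510 CPM at S3. Its ratio was 0.688 in WT 0, 0.990 in WT 1, 0.827 in WT 5, 1.28 in WT 8, 0.942 and 0.886 in the Het and 0.888 and 0.846 in the KO embryos. On this scale WT 8 was the only embryo with a higher level at S3. The ribosome biogenesis factors, measured in the same way, were at 0.290 to 0.366 of their S1 level in all 8 embryos. In sorted bulk samples, fewer cells of a type and less RNA per cell cannot be told apart.

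**Figure D1:**
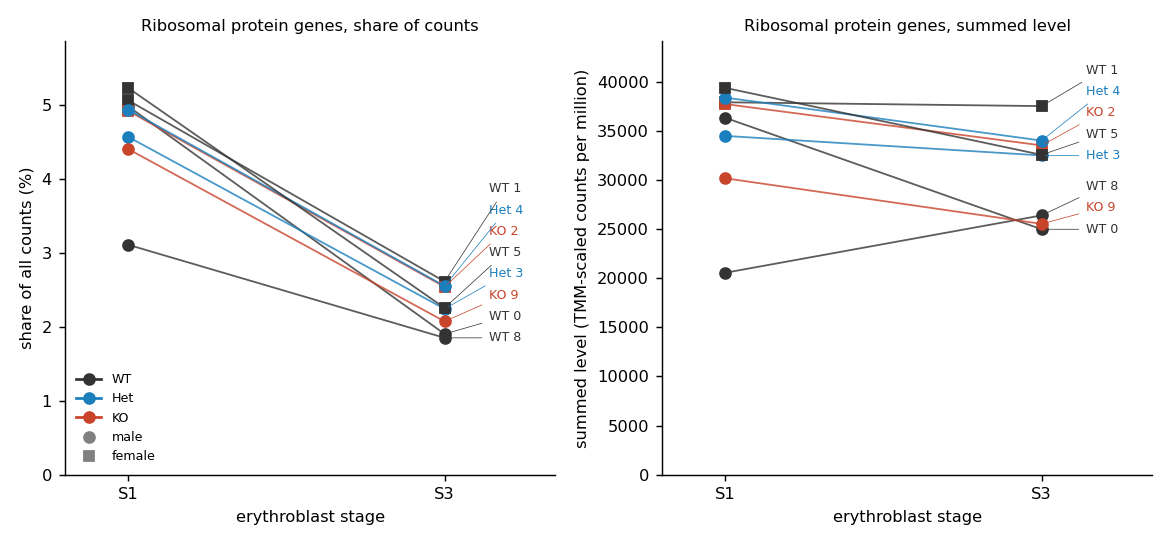
Summed ribosomal protein genes at S1 and S3 in each of 8 embryos, as the share of all counts in percent (left) and as TMM-scaled CPM (right), with lines joining the libraries of an embryo, colours for the genotype and marker shapes for the sex. The share was lower at S3 in every embryo (3.11% to 5.24% at S1, 1.85% to 2.62% at S3), while on the TMM scale WT 8 was at 20550 and then 26390 CPM and the other 7 embryos were lower at S3.

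The order of the genes by level was much the same at both stages. Per kilobase of merged exons, the highest mean level was that of Rplp0, the base of the ribosomal stalk, at 1148 CPM, and among the highest were also Rps3a1 at 867, Rpl4 at 674 and Rps2 at 608. Across the 90 genes with any count, Pearson's r of the mean log2 level per kilobase between S1 and S3 was 0.989, a description over genes from the same embryos. Levels per kilobase passed 100 for 57 genes, with a median of 169 over all 92. The 10 genes with the most counts held 27.1% to 35.3% of all counts of the 92 genes in a library.

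The lowest levels were those of copies and of genes that share sequence. Rpl10l had no count in any library, which for the shallowest library allows up to 3 counts. Rps18-ps6 was also listed at 0, but 100% of its coding bases lie under another gene, Rps18-ps4, so that its reads would not have been counted. Rps23rg1 and Rpl3l, a muscle form of Rpl3, had at most 8 and 7 counts in a library, and Rpl27rt, a retrocopy of Rpl27, had 8 to 28. Core genes were also found at the bottom: Rps10 had 20 to 261 counts and Rpl24 46 to 190. In the annotation, 76.9% of the coding bases of Rps10, 79.9% of those of Rpl24, 61.5% of those of Rpl13a and 95.3% of those of Rpl36al lie under another gene as well, and reads that overlap more than 1 gene were left out of the counts. Their levels are therefore uncertain.

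Within a stage the genes were low and high together. The 4 WT libraries of each stage were ranked for the 88 genes that passed the filter, without the Het and KO libraries. At S1 WT 8 was the lowest of the WT libraries for 85 of the 88, against 39.9% of all 13402 genes. At S3 WT 0 was lowest for 53 of them, against 20.4% of all genes, and WT 8 for 30 (34.1%), near the 35.9% of all genes. The lowest pair of WT libraries at S3 was WT 0 and WT 8 for 78 (88.6%), against 32.2% of all genes. At S1 other genes with merged exons under 1000 bases took 1.31% of the counts of WT 8 and 2.19% to 2.48% in the other 7 libraries. At S3 their share was lowest in WT 8 and WT 0, at 1.32% and 1.39%, against 1.55% to 1.84%. The part of transcript length in these libraries was not tested.

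In WT embryos, 77 of the 88 genes tested did not pass the test between S1 and S3. Higher at S3 were 3 of 88 and lower 8, against 30.6% and 35.0% of all 13514 genes (edgeR's quasi-likelihood test, Benjamini-Hochberg adjusted p under 0.05). The libraries of the stages did not overlap for 3 genes higher and 4 lower, against 27.6% and 32.8% of all genes. The median log2 fold change of the 88 was −0.19, against −0.08 over all genes. With 1 WT embryo left out, the median of the ribosomal protein genes ran from −0.25 to −0.04. Among 317 other genes with a mean above 100 CPM and merged exons under 2000 bases the median was 0.55, and 65.6% passed. Fold changes are on the TMM scale. With the counts scaled to the library total alone, the median of all genes moved to −1.15 and that of the ribosomal protein genes to −1.20, and 84 of the 88 were lower and none higher, against 64.3% and 13.3% of all genes. Changes relative to the other genes are therefore what the fits give.

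Rps2, a small subunit protein of the mRNA entry site, rose. Its level was 1114, 866, 1040 and 691 CPM in WT 0, 1, 5 and 8 at S1 and 1261, 1430, 1354 and 1251 at S3, with no overlap. The log2 fold change was 0.58 (SE 0.165, adjusted p = 0.0105). Rpl41, the smallest protein of the large subunit, went from 407, 364, 390 and 188 to 487, 607, 623 and 544, again without overlap, and its log2 fold change was 0.81 (SE 0.22, adjusted p = 0.00868). Scaled by total count, their log2 fold changes were below 0, −0.44 for Rps2 and −0.20 for Rpl41, still above the −1.15 of all genes. The third gene higher at S3 was Rpl27rt, with 8 to 23 counts in the WT libraries of S1 and 17 to 28 at S3 (log2 fold change 1.47, SE 0.43).

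Rpl5, which carries the 5S rRNA into the large subunit and with Rpl11 holds back Mdm2, fell. It had 1006, 1203, 1063 and 526 CPM in WT 0, 1, 5 and 8 at S1 and 368, 616, 506 and 359 at S3. Every embryo was lower at S3, although WT 8 at S1 lay below WT 1 at S3. The log2 fold change was −0.98 (SE 0.26, adjusted p = 0.00649). Its partner Rpl11 had −0.15 (SE 0.23), which did not pass.

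Rpl7l1, a paralog of Rpl7 that takes part in assembly of the large subunit, went from 302, 342, 321 and 263 to 134, 184, 168 and 134 CPM, without overlap (log2 fold change −0.93, SE 0.14, adjusted p = 0.000229). Rpl7 itself had 0.09 (SE 0.18). Rpl30, of the large subunit, fell by 0.79 on the log2 scale (SE 0.29, adjusted p = 0.0339) and Rps12, of the small subunit, by 0.56 (SE 0.22, adjusted p = 0.0439). In both, WT 8 at S1 lay within the range of S3.

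Larger falls were found in genes with few or uncertain counts. Rps10, a Diamond-Blackfan anaemia gene, had 6.90, 5.32, 5.88 and 5.34 CPM at S1 and 1.65, 2.29, 0.77 and 1.58 at S3 (log2 fold change −1.84, SE 0.31, adjusted p = 0.000447). Rpl13a, which also serves in translational silencing, had 30.7, 26.7, 28.6 and 20.4 at S1 and 10.5, 14.9, 10.2 and 7.58 at S3 (log2 fold change −1.24, SE 0.21). Rpl36al, a paralog of Rpl36a, had −1.56 (SE 0.315) from 86 to 151 counts at S1 and 17 to 20 at S3. Of the 4 tested genes that share 50% or more of their coding bases with another gene, these 3 were lower and the fourth, Rpl24, had −0.16 (SE 0.31). The 74 other core genes had a median of −0.19, with 2 higher and 3 lower. The last gene to fall was Rpl39l, a paralog of Rpl39 known from testis, with 15 to 56 counts at S1 and 1 to 13 at S3.

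**Figure D2:**
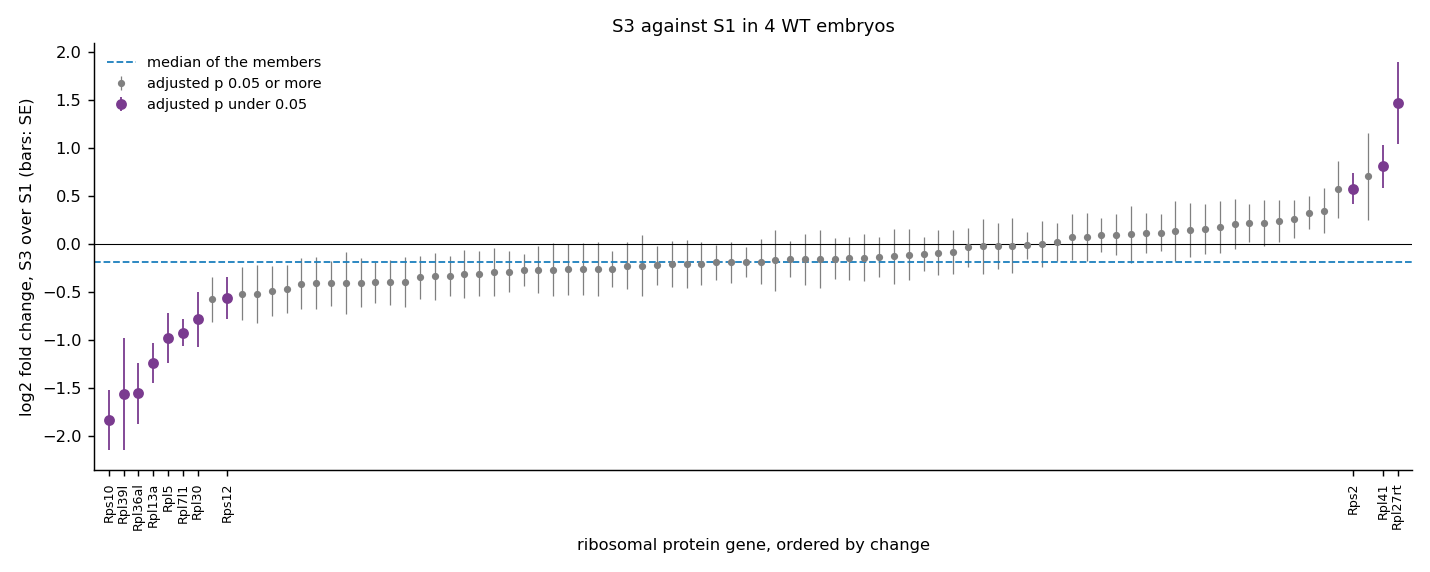
Log2 fold change of S3 over S1 in 4 WT embryos for each of the 88 ribosomal protein genes tested, ordered by change, with bars for the SE and larger purple points, named on the axis, for adjusted p under 0.05 (edgeR, TMM scaling). Rps10 at −1.84 and Rpl27rt at 1.47 stand at the ends, the dashed line is the median of −0.19, and on the total-count scale Rps2 and Rpl41 lay below 0.

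Several genes well known in this setting did not pass in WT. Rps6, the small subunit protein phosphorylated downstream of mTORC1, had 694, 737, 739 and 419 CPM in WT 0, 1, 5 and 8 at S1 and 534, 775, 662 and 547 at S3, with overlap and a log2 fold change of 0.02 (SE 0.20). The stalk proteins Rplp0, Rplp1 and Rplp2 had 0.33 (SE 0.17), −0.08 (SE 0.23) and 0.15 (SE 0.26), and Rps27a, made as a fusion with ubiquitin, −0.14 (SE 0.25). Rps19, the gene most often altered in Diamond-Blackfan anaemia, had 0.07 (SE 0.24). Of 19 Diamond-Blackfan anaemia genes, none was higher and 2 were lower, Rps10 and Rpl5, against the 30.6% and 35.0% of all genes. The median of the 19 was −0.27, and with 1 WT embryo left out it ran from −0.34 (without WT 8) to −0.12 (without WT 0). Without WT 0 and WT 8, 1 of these genes was higher and 5 lower, against 28.9% and 33.5% of all genes. Without WT 8 alone none was higher and 4 were lower, against 31.7% and 33.7%. Rps29, a zinc-binding small subunit protein, had 0.57 (SE 0.30, adjusted p = 0.116) and Rpl18 −0.58 (SE 0.24, adjusted p = 0.0516).

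WT 8 and WT 0 bear on these counts. Without both, 3 genes were higher and 17 lower among the 88, against 28.9% and 33.5% of all genes. Rpl41 and Rps2 remained among the higher and Rps29 took the place of Rpl27rt. Without WT 8 alone there were 15 lower, against 33.7% of all genes. Without WT 0 alone and without WT 5 alone there were 5, against 31.1% and 29.4%. S1 and S3 libraries come from the same animals, and with the embryo as a block 5 were higher and 13 lower, against 33.3% and 36.3% of all genes. The block added Rps29 (log2 fold change 0.60, adjusted p = 0.0460) and Rpsa (0.57, adjusted p = 0.0128) to the higher, and genes that include Rpl12, Rpl14, Rpl18 and Rpl27 to the lower.

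The same comparison was made in Het and in KO embryos, with 2 libraries a stage. In Het, 15 of 88 genes were higher and 17 lower, against 36.3% and 39.6% of 13085 genes. The median log2 fold change in Het was −0.06 against −0.05 over all genes, and it ran from −0.09 to 0.006 with 1 Het embryo left out. In KO, 1 was higher and 6 lower, against 24.7% and 28.4% of 13446 genes, with a median of −0.21 against −0.09. These counts rested on both embryos. Without 1 of the 2 Het embryos, 0 or 1 gene was higher and 3 were lower, against 19.3% to 19.7% and 22.1% to 23.0% of all genes. Without 1 of the 2 KO embryos, none was higher and 2 or 3 were lower, against 19.4% to 19.6% and 20.5% to 21.6%. In these fits the lone embryo was assumed to vary like the others. One fit of all 16 libraries gave 4 higher and 5 lower in Het, against 28.9% and 32.4% of all genes. The counts of the genotypes side by side are no test of a different effect, which the interaction described later gives. With the embryo as a block, Het gave 17 and 17, against 36.8% and 39.9%, and KO 7 higher and 46 lower of 88, against 31.9% and 36.1% of all genes. By total count, 84 genes were lower in Het, against 65.1% of all genes, and 81 in KO, against 54.2%. None was higher in either, against 17.2% and 11.5%.

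Rpl41 passed in each genotype and was higher at S3, at 335 and 357 CPM at S1 and 666 and 637 at S3 in Het and at 366 and 323 and then 528 and 539 in KO. Its log2 fold changes were 1.03 (SE 0.12) in Het and 0.72 (SE 0.16) in KO, the latter −0.18 by total count. Rpl5 had 1001 and 1251 CPM at S1 and 460 and 512 at S3 in Het, and 1115 and 793 and then 547 and 395 in KO, with log2 fold changes of −1.09 (SE 0.14) and −0.93 (SE 0.24). Rps10, Rpl13a, Rpl7l1 and Rpl30 passed as lower in every genotype. Rps10 had −1.74 in Het and −1.44 in KO, Rpl13a −1.40 and −1.11, Rpl7l1 −1.03 and −0.84, and Rpl30 −0.72 and −0.79.

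In Het the 5 called genes with the largest rise also included Rpl27rt (1.62), Rps29, Rps2 and Rpl39. Rps29 had 0.98 (SE 0.12) in Het and 0.55 (SE 0.23, adjusted p = 0.0967) in KO. Rps2 had 0.65 (SE 0.13) and Rpl39, at the exit of the nascent peptide tunnel, 0.62 (SE 0.11). By total count the Het values were −0.33 for Rps2 and −0.36 for Rpl39. Of the Diamond-Blackfan anaemia genes 5 were higher and 5 lower in Het, against 36.3% and 39.6% of all genes, and none and 2 in KO, against 24.7% and 28.4%. The Het counts of these genes were 1 and 2 in the fit of all 16 libraries, against 28.9% and 32.4% of all genes. Their counts in Het and KO also rested on both embryos of the genotype. Their median log2 fold change was −0.11 in Het, −0.17 without Het 3 and −0.07 without Het 4. In KO it was −0.25, −0.29 without KO 2 and −0.25 without KO 9. The stage effect was tested between genotypes directly, and no ribosomal protein gene passed in the interaction of stage with KO or with Het. The median differences were −0.01 and 0.11 on the log2 scale. With 1 embryo left out they ran from −0.14 to 0.10 for KO and from −0.008 to 0.23 for Het. In these interactions 0.00742% and 0% of all genes passed. No ribosomal protein gene had an unadjusted p under 0.05, against 3.11% and 2.80% of all genes. DESeq2 called none of them either, against 0.0890% and 0% of all genes.

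The factors that build ribosomes moved apart from the proteins of the ribosome. Of 69 ribosome biogenesis factors, 63 were lower at S3 in WT and 1 was higher, against 35.0% and 30.6% of all genes, with a median log2 fold change of −1.80. Without WT 0 and WT 8, 62 were lower and 1 higher, against 33.5% and 28.9% of all genes, with a median of −1.72. In Het 64 were lower and in KO 60, against 39.6% and 28.4% of all genes, with medians of −1.92 and −1.69. The nucleolar helicases Ddx21 and Ddx10 had −2.84 (SE 0.16) and −2.62 (SE 0.17) in WT, and the large subunit assembly factor Grwd1 −3.23 (SE 0.20). Sbds, which releases a block on subunit joining at the last step of maturation, was higher, at 0.74 (SE 0.15).

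The counts of the lists stand against 30.6% of all genes higher and 35.0% lower in WT. Of 20 other TOP transcripts, 3 were higher and 9 lower in WT, with a median of −0.42. The nucleolar chaperone Npm1 had −3.10 (SE 0.27), the initiation factor Eif4b −1.94 (SE 0.19) and the poly(A)-binding protein Pabpc1 1.99 (SE 0.21), while the elongation factor Eef1a1 had 0.03 (SE 0.16). Of 77 mitochondrial ribosomal protein genes tested, 5 were higher and 29 lower, the latter near the share of all genes, with a median of −0.46. Among 13 regulators of TOP translation and of Rps6, 5 were higher and 3 lower. The S6 kinase Rps6kb2 had 1.52 (SE 0.14), Rps6ka1 2.25 (SE 0.21) and the RNA-binding protein Larp4 −1.94 (SE 0.24). Larp1 had 0.87 (SE 0.21) and Mtor 1.10 (SE 0.23), both named here for their roles after their values were seen. Of 10 ribosome rescue factors 5 were higher and 4 lower, with Gtpbp2, which acts on stalled ribosomes, at 3.93 (SE 0.25).

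**Figure D3:**
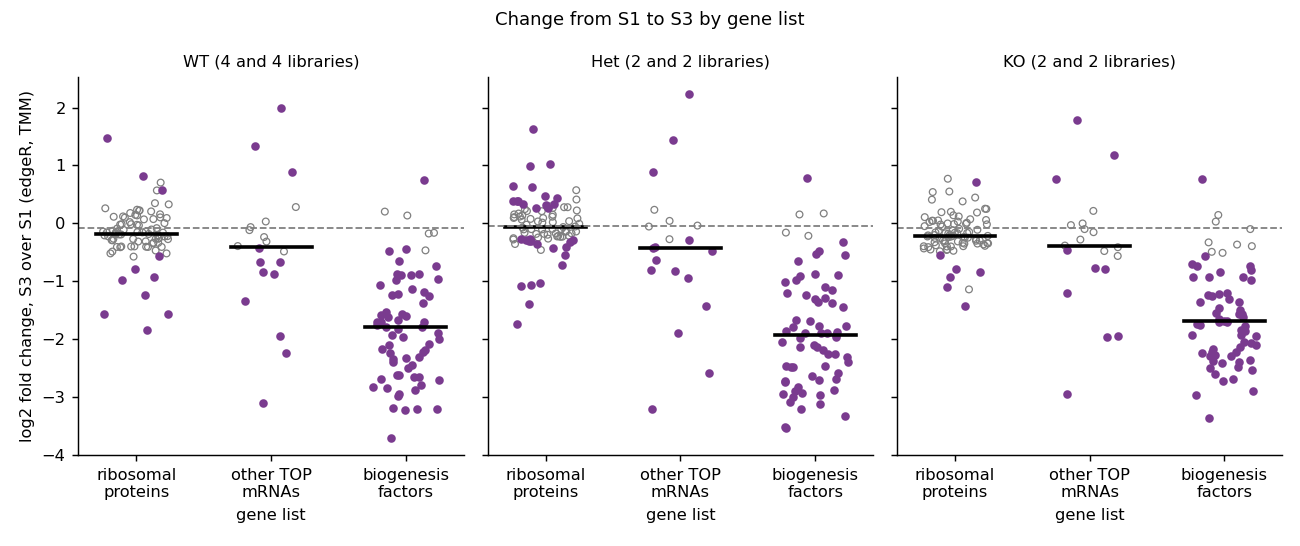
Log2 fold change of S3 over S1 (edgeR, TMM scaling) in WT, Het and KO embryos for ribosomal protein genes, other TOP transcripts and ribosome biogenesis factors, with a point per gene, purple where adjusted p was under 0.05, bars for list medians and a dashed line for the median of all genes. In WT the medians were −0.19, −0.42 and −1.80, on a scale where the median of all genes was −0.08, which by total count was −1.15. With 1 WT embryo left out, the median of the ribosomal protein genes ran from −0.25 to −0.04.

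Paralogs were set beside their partners per kilobase, which removes the scaling of the library. Rpl7l1 was at 38.5% of Rpl7 in the median S1 library and 17.8% at S3, and lower at S3 in all 8 embryos. Rpl22l1 was at 84.8% of Rpl22 at S1 and 119% at S3, and higher in 7 of 8. Rps27l, a p53 target, was at 569% of Rps27 and then 543%, and Rps4l at 16.5% and 18.3% of Rps4x. Reads that map to several places were left out, which can lower a gene with close copies. Rps27 has 1 pseudogene row named after it and Rps27l has 0, and the part of this in the ratios was not tested. Rpl36al was at 2.24% of Rpl36a and then 0.965%, and Rpl39l at 0.875% and 0.409% of Rpl39, both from few counts. Rps27rt was at 9.81% of Rps27 and then 11.8%. In the fits of WT, Rpl22l1 had a log2 fold change of 0.12 (SE 0.19) and Rpl22 of −0.29 (SE 0.21), and neither passed. Rpl26l1 and Rps15a-ps were not among the genes that the rule found.

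Rpsa, the laminin receptor protein of the small subunit, differed between embryos more than any other gene of the 86 with at least 10 counts in every library. At S1 it was at 289, 257, 245 and 240 CPM in WT 0, WT 5, Het 3 and KO 9, and at 567, 586, 546 and 852 in WT 1, WT 8, Het 4 and KO 2. At S3 the first 4 embryos were at 316, 332, 329 and 300 and the other 4 at 827, 1159, 754 and 1202. The sets did not overlap at either stage, and each held embryos of all 3 genotypes. After the median of the 86 genes in each library was taken out, the SD of its log2 level over the 8 embryos was 0.857 at S1 and 0.875 at S3, against medians of 0.114 and 0.122 over the 86 genes and highest values of 0.342 and 0.600 among the others. Pearson's r between the stages over the 8 embryos was 0.991, given as a description, since both stages come from the same animals and the gene was chosen for this pattern.

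The pseudogene Rpsa-ps10 (chromosome 3, 149778295 to 149779179, minus strand) differs from the transcript of Rpsa (chromosome 9, 119956755 to 119962787, plus strand) by 6 edits over its 885 bases in the reference and held 94.5% of the counts of the 12 pseudogene rows named after Rpsa. Its counts ran the other way. At S1 it had 4878, 5813, 6836 and 6781 counts in WT 0, WT 5, Het 3 and KO 9, where Rpsa was low. It had 3042 and 2674 in WT 1 and Het 4, and 428 and 456 in WT 8 and KO 2, where Rpsa was high. The same 3 levels were found at S3, at 3265 to 5060, 2611 and 2014, and 160 and 288 counts. Reads that fit both places equally well were left out of the counts, so the division of reads between the gene and its copy cannot be seen in the table, and its part in the level of Rpsa was not tested.

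**Figure D4:**
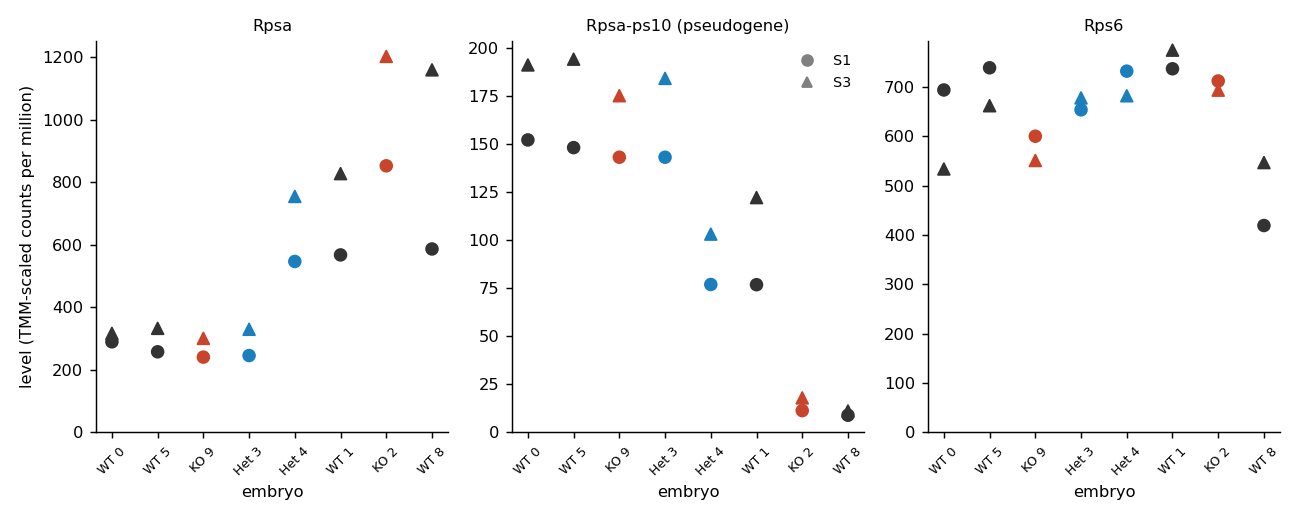
Level of Rpsa, of the pseudogene Rpsa-ps10 and, for comparison, of Rps6 in TMM-scaled CPM for 8 embryos, ordered by Rpsa-ps10 at S1, with circles for S1, triangles for S3 and the genotype colours black for WT, blue for Het and red for KO. Rpsa was at 240 to 332 in the 4 embryos on the left and 546 to 1202 in the 4 on the right at either stage, Rpsa-ps10 was lower towards the right, and Rps6 did not follow this order.

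Loss of Nprl3 was compared with WT within each stage, and the KO and Het comparisons share the same WT libraries. At S1, no ribosomal protein gene passed between KO and WT, against 0.00712% of all 14039 genes, and none of the 88 had an unadjusted p under 0.05, against 2.53% of all genes. DESeq2 called none of them, against 0.321% of all genes. A gene that did not pass is not shown to be unchanged. The log2 fold changes ran from −0.45 to 0.36 with a median of 0.03. The 5 genes with the smallest unadjusted p were Rps4l (0.33), Rpl24 (0.28), Rps26 (0.27), Rpl39l (−0.45) and Rpl9-ps6 (0.18). Nprl3 itself had −5.72 (SE 0.43, adjusted p = 0.0212).

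At S3, no ribosomal protein gene passed between KO and WT, against 0.559% of all 11804 genes, nor with DESeq2, which called 2.19% of all genes. Of the 88, 1 had an unadjusted p under 0.05, against 8.52% of all genes. This was Rpl39l, at 0.34, 0.42, 0.50 and 0.07 CPM in WT 0, 1, 5 and 8 and 1.48 and 0.48 in KO 2 and 9 (log2 fold change 1.53, SE 0.65, adjusted p = 0.556), with 1 to 24 counts in a library. The median of the 88 was 0.03. Rps6 had 534 to 775 CPM in WT and 694 and 551 in KO, within the range of WT, and a log2 fold change of 0.04 (SE 0.17). Rps19 had −0.01 (SE 0.17), Rpl11 0.07 (SE 0.19) and Rplp0 −0.13 (SE 0.19).

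The lists of related genes gave no call between KO and WT at S3 either. The biogenesis factors had a median log2 fold change of 0.20 with 62 of 69 above 0 and a smallest adjusted p of 0.452. Without WT 0 and WT 8 the median was 0.05 with 42 above 0, and without KO 2 it was 0.01 with 36 above 0. Their summed level was 5646 and 4353 CPM in KO 2 and 9 and 4301, 5924, 4712 and 3849 in WT 0, 1, 5 and 8, within the range of WT. Eif4ebp1, which holds back the cap-binding protein Eif4e until mTORC1 phosphorylates it, had 1.41 (SE 0.28, adjusted p = 0.0898), and 1.10 (SE 0.173, adjusted p = 0.0961) without WT 0 and WT 8. The summed hepatoblast markers were at 108 and 265 CPM in KO and 242 to 1014 in WT, and the summed macrophage markers at 150 and 146 in KO and 206 to 288 in WT, with 3 of 15 macrophage genes lower, against 0.102% of all genes. The part of these cells in the KO comparison was not tested.

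The direction of the small KO medians turned on the embryos used. Without WT 0 and WT 8 the median log2 fold change of the ribosomal protein genes was −0.18 at S1 and −0.16 at S3, with 7 and 10 of 88 above 0. None passed at either stage, against 0.0142% and 0.0424% of all genes. Without WT 8 alone it was −0.14 at S1. Without KO 2 it was −0.11 at S1 and −0.14 at S3, and without KO 9 it was 0.14 and 0.17. Those were also the ends of its range over the embryos left out 1 at a time, apart from the −0.14 without WT 8 at S1.

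In Het against WT 0% of all genes passed in edgeR at S1 and at S3, and DESeq2 called no ribosomal protein gene at either stage, against 0.217% and 0.00851% of all genes. At S1 none of the 88 had an unadjusted p under 0.05, against 4.26% of all genes, and the median of the ribosomal protein genes was 0.10, and −0.10 without WT 8. At S3 it was 0.24, with 83 of 87 genes above 0, against a median of −0.02 over all genes. Without WT 0 and WT 8 it was 0.02, with 55 of 88 above 0. An unadjusted p under 0.05 was found for 4 of the 87, against 3.18% of all genes. These were Rps12 (0.37), Rpl39 (0.39), the stalk protein Rplp1 (0.37) and Rps27 (0.39).

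The sex of the embryo moved with this comparison. Both Het embryos are male, and the WT males are 0 and 8, the embryos with the lowest share of counts from ribosomal protein genes at S3. With sex in the fit, 58 of 87 genes passed as higher in Het at S3, against 8.84% of all 11746 genes, and with DESeq2 and sex 65, against 9.97%. The median was then 0.45. Rps6 had 0.36 (SE 0.11, adjusted p = 0.0468), and in the fit without sex 0.17 (SE 0.15, adjusted p = 0.901). Rplp1 had 0.60 with sex and 0.37 without, and Rps29 0.87 and 0.51. Without WT 0 and WT 8 their values were 0.01, 0.17 and 0.22, and none of the 88 passed, against 0.0683% of all genes. In the fit with sex, Het is in effect set against these 2 males, so that the genotype and what sets these embryos apart cannot be told apart. In KO against WT, where each sex is in both groups, no ribosomal protein gene passed with sex in the fit at S1 or S3, against 0.150% and 4.63% of all genes.

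**Figure D5:**
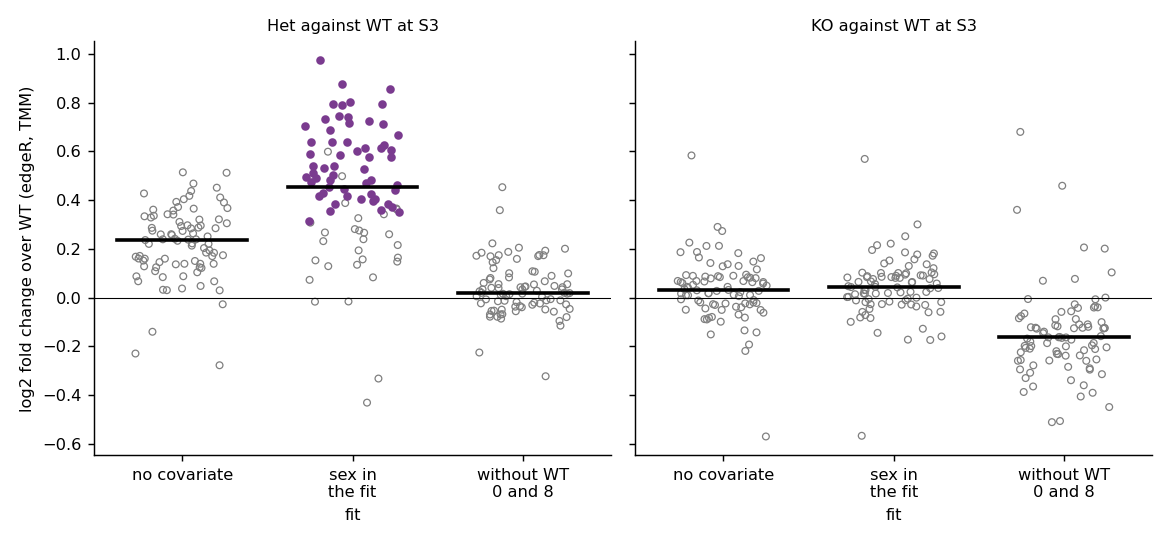
Log2 fold change over WT at S3 of the ribosomal protein genes in Het (left) and KO (right) under 3 fits: no covariate, the sex of the embryo added, and WT embryos 0 and 8 left out, with a point per gene, purple where adjusted p was under 0.05, and bars for the medians (edgeR, TMM scaling). In Het 58 genes passed with sex in the fit and none in the other fits, and the medians were near 0.24, 0.45 and 0.02, while in KO none passed under any fit. Rpl39l is not drawn.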

How the data were processed

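RNA was amplified with SMARTer chemistry from small numbers of sorted cells before polyA libraries were made, so counts can differ between libraries with RNA quality and transcript length. The deposited values were raw counts per gene, made by the authors with STAR 2.7.9 on mm39 and featureCounts 1.6.4 without strand, in which reads that map to several places or overlap several genes are left out. The order of deepTools 3.3.1, which the submitters' processing notes also name, is not given in the sources used here. The 4 library columns of other samples in the table were not used. Of 55416 gene identifiers, 54749 had a symbol.

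Genes with a mean normalised count above 10 in the libraries of a comparison were scaled by TMM and tested with edgeR 4.0.16 (quasi-likelihood, R 4.3.3) without covariates, since the study's methods name DESeq2 but no design formula. P-values were adjusted over all genes tested by Benjamini and Hochberg and called under 0.05. SE is the log2 fold change divided by the root of F. Levels are TMM-scaled counts per 1000000 (CPM) over all 16 libraries, per kilobase of merged exons where genes are compared. The fits were tested on simulated counts. Each embryo is an animal of its own, and S1 and S3 of an embryo share the animal. Deviations from the group means of an embryo's libraries correlated at r = 0.0299 to 0.585 over 13402 genes, and the same animal makes the pairing. The embryo was a block in an alternative fit.

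The genes, the lists beside them and the tests were chosen with earlier results of these data known. The genes named are the 5 largest rises and falls among calls in each comparison or, with fewer than 5 calls, the 5 with the smallest unadjusted p, the 5 highest and lowest levels per kilobase, paralogs, Diamond-Blackfan anaemia genes, Rps6, the stalk proteins and Rps27a, and for each list 3 genes with the smallest p. Some items that this rule names are not reported here. Rpsa was described for its spread between embryos after its values were seen, as were Larp1 and Mtor. Alternatives were DESeq2 1.42.0, other filters, scalings and libraries, sex, pseudogene counts added and each embryo left out. Leaving out WT 0 and WT 8, DESeq2 with the block and the related lists under left-out embryos were chosen after seeing the data.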

Additional observations from a re-analysis of the deposited data

Results flagged for a closer look

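Of 50 groups of 4 libraries tested for a library far from the others, 2 held such a library, and chance alone gives one in about 5% of groups. The ribosomal protein genes took 3.11% of the counts of WT 8 at S1, against 4.99% to 5.24% in the other WT libraries of that stage. The gap to the nearest library was 0.883 of the range of the group, above Dixon's critical value for 4 samples. Large subunit genes held 59.4% of the counts of the core ribosomal protein genes in WT 1 at S1, against 60.3% to 60.4% in the other WT libraries, with a gap of 0.845 of the range.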

How the results depend on the processing

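Numbers of ribosomal protein genes higher and lower at S3 moved by over 1.5 times from 3 and 8 in WT, 15 and 17 in Het and 1 and 6 in KO as follows, each with the share of all genes. Total count scaling gave 0 and 84 in WT (13.3% and 64.3%), 0 and 84 in Het (17.2% and 65.1%) and 0 and 81 in KO (11.5% and 54.2%). It also turned Rpl41 to −0.20 and Rps2 to −0.44 in WT, Rps2 to −0.33 and Rpl39 to −0.36 in Het, and Rpl41 to −0.18 in KO. Upper quartile scaling gave 14 lower in WT (38.7%), 7 higher and 36 lower in Het (32.8% and 43.1%), and 21 lower in KO (32.9%). With the embryo as replicate block, 5 and 13 were called in WT (33.3% and 36.3%) and 7 and 46 in KO (31.9% and 36.1%), and with the block in DESeq2 6 were higher in WT (33.8%) and 9 higher and 35 lower in KO (28.8% and 29.3%). No filter on low counts gave 8 and 33 in Het (19.9% and 26%) and 13 lower in KO (19.4%). A single fit of all 16 libraries gave 4 and 5 in Het (28.9% and 32.4%) and 2 higher in KO (26.9%), and DESeq2 gave 2 higher in KO (25.7%). Leaving out 1 embryo at a time gave 5 (without WT 0 or WT 5, 31.1% and 29.4%) to 15 (without WT 8, 33.7%) lower in WT, 0 to 1 higher (19.3% to 19.7%) and 3 lower (22.1% to 23.0%) in Het, and 0 higher (19.4% to 19.6%) and 2 to 3 lower (20.5% to 21.6%) in KO, where the lone library was assumed to vary like the others. Leaving out WT 0 and WT 8 gave 17 lower in WT (33.5%). With sex, 58 genes (edgeR, 8.84%) and 65 (DESeq2, 9.97%) were higher in Het than in WT at S3, from 0 without it. The block changed no call in the interactions of stage with genotype. Of the values of named genes under the alternatives, 895 kept their direction and side of the threshold, 37 lost and 10 gained the threshold and 5 turned. The causes were not tested. The values of Rps10, Rpl27rt and Rpl39l rest on as few as 20, 8 and 1 counts in a library.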

Other observations

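The other lists were set beside the ribosomal protein genes at S3 against S1, where 30.6% of all genes were higher and 35.0% lower in WT, 36.3% and 39.6% in Het and 24.7% and 28.4% in KO. Of 21 p53 target genes tested in WT, 8 were higher and 8 lower, and in KO 9 were higher and 7 lower of 21. Of 10 ribosome rescue factors, Pelo, which recognises stalled ribosomes, had a log2 fold change of 0.79 and Abce1, which splits ribosomes into subunits, of −0.90 in WT. In Het 5 were higher and 4 lower, and in KO 3 and 2. Of 20 other TOP transcripts, 3 were higher and 12 lower in Het and 3 and 7 in KO, and of 77 mitochondrial ribosomal protein genes 9 and 47 in Het and 2 and 28 in KO. The 13 regulators of TOP translation and of Rps6 gave 7 and 4 in Het and 4 and 2 in KO.

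Among markers of other cells, 12 of 15 macrophage genes were higher at S3 than at S1 in WT, 9 of 9 neutrophil genes tested were lower, 5 of 14 hepatoblast genes were higher, 2 of 10 megakaryocyte genes were higher and 4 lower, and 3 of 3 embryonic globin genes of primitive erythroid cells were higher. Of 8 erythroid genes 7 were higher and 1, Kit, was lower. Pseudogene rows named after ribosomal protein genes, 315 in all for 61 of the 92 genes, held 0.0199% to 0.0833% of the counts of a library.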
